A study of Mus musculus with 3 samples.

Results

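The genes described here are the RUNX transcription factors and core binding factor in old mouse blood stem cells: Runx1, Runx2, Runx3, their partner Cbfb, and the co-repressors Runx1t1 (ETO) and Cbfa2t3 (ETO2). These 6 genes, of 31208 genes counted, were listed by name and not by a rule on their values. Earlier results of these data were known when they were chosen. For each gene, chromatin fragments were counted over the gene with 2 kb upstream, at each alternative transcription start and at each open site within this span. The cells were wild-type long-term haematopoietic stem cells (LT-HSCs) sorted from the bone marrow of 24-month-old female C57BL/6J mice, with no treatment named in the labels. They were profiled by DOGMA-seq, a droplet method that reads open chromatin (ATAC), RNA and surface proteins, the last through oligo-tagged antibodies, from the same cell. Each of the 3 libraries came from 1 pool of cells, and the labels give no number of mice. The ATAC and antibody libraries were used, joined by cell barcode, and the RNA counts per gene were not used here. With 1 library per assay there was no replicate, so every interval below is a 95% interval that covers counting error only, and no test between groups of cells was made.

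RUNX1, RUNX2 and RUNX3 bind the same short DNA sequence through the runt domain, and each binds it well only as a heterodimer with CBFB, which makes no contact with DNA itself. RUNX1 is needed for blood stem cells to arise in the embryo and for platelet formation and lymphocyte development in the adult. RUNX2 is best known from bone and RUNX3 from T cells and NK cells. RUNX1T1 and CBFA2T3 do not bind DNA: they are scaffolds for histone deacetylases, and CBFA2T3 sits in the complex of GATA factors, TAL1, LMO2 and LDB1. RUNX1, CBFB and RUNX1T1 are best known as the fusion partners of core binding factor leukaemias.

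The ATAC library held 43705382 fragments. Of 4369 called cells, 3724 had antibody counts, and the 3629 with at least 10 summed tags were kept; these held 38554133 nuclear fragments, with a median of 10300 per cell (range, 3859 to 45151). Levels per kb, taken over the gene with 2 kb upstream, did not single out the stem cell label. By this measure 6 of 9 HSC marker genes lay above the median gene and 5 above the median protein-coding gene. Hlf was highest at 2.54 fragments per kb per 1000000 nuclear fragments (FPKM), whereas none of 5 macrophage genes lay above either median (0.0262 to 0.536). Outside the stem cell list, 5 of 6 megakaryocyte genes, 2 of 5 erythroid genes, 3 of 5 granulocyte and monocyte genes, 1 of 5 B cell genes and 2 of 5 T cell genes lay above the median gene. Fragment ends within 500 bp of the most open start of a gene gave another picture. HSC genes had 192 (Slamf1) to 2743 (Mllt3), where the median of all starts was 141. Megakaryocyte genes had 3 to 1318, erythroid genes 9 to 964, and granulocyte and monocyte genes 4 to 481. Macrophage genes had 6 to 150, B cell genes 20 to 1043 and T cell genes 1 to 469. Cells with an excess of overlapping fragments, which can mark 2 cells in 1 droplet, numbered 253 and were kept.

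Cbfa2t3 and Runx3 were the most accessible members per kb, and Runx1t1 the least. Levels are in FPKM over the gene with 2 kb upstream, and the median of the 25459 genes with at least 20 fragments was 0.909. Each level is thus an average over a span whose length differs between the genes, and single starts, described below, stood in another order. Cbfa2t3 had 2.80 (2.74 to 2.86), Runx3 2.33 (2.26 to 2.39), Runx1 1.38 (1.35 to 1.40), Cbfb 1.22 (1.18 to 1.28), Runx2 0.885 (0.868 to 0.901) and Runx1t1 0.557 (0.538 to 0.576). No interval in this order overlapped its neighbour. Runx2 and Runx1t1 lay below the median gene, and the other 4 members lay above it and above the median of protein-coding genes (1.09). In the 303298 barcodes that were not called as cells, levels ran from 0.5002 for Runx1t1 to 2.38 for Cbfa2t3 in the same order, save that Cbfb (1.12) stood just above Runx1 (1.11).

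Because the genes differ in length, the fragments seen per cell did not follow this order. Runx1, at chr16:92601466-92826149 (mm10, minus strand), gave 12047 fragments, and 93.0% of cells had at least 1. Runx2, at chr17:44495987-44814797 (minus strand), gave 10943 fragments in 91.0% of cells. Cbfa2t3, at chr8:122625141-122699109 (minus strand), gave 8200 in 84.3%. These 3 genes were the ones covered in the largest shares of cells. Runx3, at chr4:135120652-135177990 (plus strand), gave 5323 fragments in 72.4% of cells. Runx1t1, at chr4:13743436-13893649 (plus strand), gave 3267 in 53.8%. Cbfb, at chr8:105170674-105217989 (plus strand), gave 2328 in 43.2%. Cbfb was the shortest of the 6 genes, and its median cell had no fragment. In the annotation Runx1 overlaps Gm26626, Runx2 overlaps Supt3 and 3 antisense genes (Runx2os1, Runx2os2 and Runx2os3), Runx3 overlaps Gm16225 and Gm16224, Cbfb overlaps Gm3830, and Cbfa2t3 overlaps Gm20388 and Gm10612. ATAC fragments carry no strand, so accessibility of a gene and of an overlapping gene cannot be told apart.

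**Figure D1:**
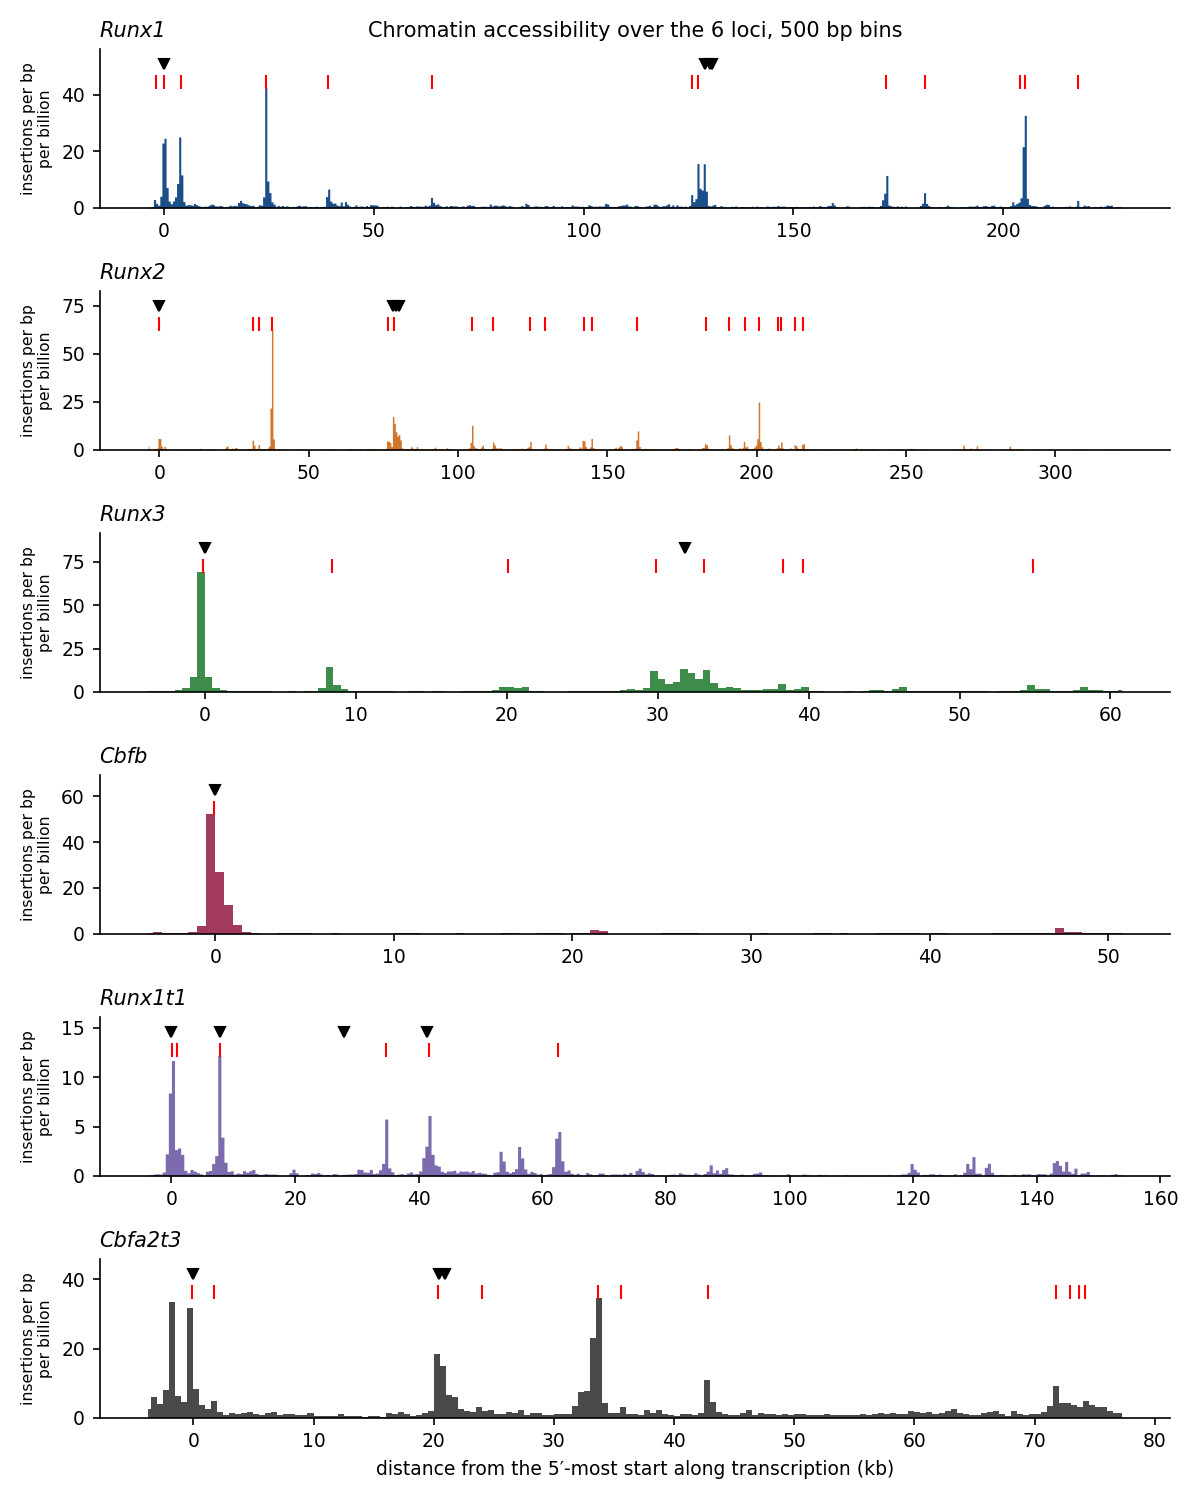
Transposase insertions along the 6 loci in 500 bp bins, as insertions per bp scaled to 1000000000 insertions of the kept cells, against the distance from the 5′-most start in the direction of transcription (kb). Black triangles mark annotated starts and red ticks the summits of the open sites: Runx1 has its highest peak 24.3 kb inside the gene, Runx2 37.6 kb inside it, and Cbfb has a single peak at its start.

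The sequences below carry the sites on which the description turns: the windows upstream of the distal and proximal Runx1 starts and of the Cbfb start, and the summits of the strongest intronic open sites in Runx1, Runx2, Runx3 and Cbfa2t3 that hold no start of another gene. All were read from the GRCm38 mouse genome (mm10) and are written 5′ to 3′ on the strand of the gene, and none overlaps an annotated exon. Capitals mark matches, on either strand, to the short letters searched for: TGTGGT and TGCGGT (the RUNX core), AGATAA (for factors of the GATA family), CGGAAG and AGGAAG (for ETS factors), TGANTCA (AP-1) and CAGCTG and CAGATG (E-boxes, bound by TAL1 and its partners). Matches to different motifs may overlap.
Runx1 upstream of the distal start, chr16:92826150-92826399, minus strand: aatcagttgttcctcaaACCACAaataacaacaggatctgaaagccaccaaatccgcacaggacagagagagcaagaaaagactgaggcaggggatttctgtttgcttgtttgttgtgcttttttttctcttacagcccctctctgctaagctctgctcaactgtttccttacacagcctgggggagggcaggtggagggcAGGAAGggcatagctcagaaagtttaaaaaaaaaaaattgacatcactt
Runx1 upstream of the proximal start, chr16:92697330-92697579, minus strand: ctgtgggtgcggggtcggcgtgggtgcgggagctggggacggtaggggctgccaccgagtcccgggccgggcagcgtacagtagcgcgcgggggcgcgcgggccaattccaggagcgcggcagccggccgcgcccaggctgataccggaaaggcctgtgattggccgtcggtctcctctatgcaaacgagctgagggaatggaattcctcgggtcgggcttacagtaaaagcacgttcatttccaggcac
Cbfb upstream of the start, chr8:105170424-105170673, plus strand: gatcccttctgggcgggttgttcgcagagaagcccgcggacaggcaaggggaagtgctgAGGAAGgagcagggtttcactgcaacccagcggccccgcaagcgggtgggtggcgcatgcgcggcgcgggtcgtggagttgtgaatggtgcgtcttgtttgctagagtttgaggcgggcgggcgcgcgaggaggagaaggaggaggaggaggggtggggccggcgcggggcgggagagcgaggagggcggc
Runx1 intronic site at 24.3 kb, chr16:92801651-92801950, minus strand: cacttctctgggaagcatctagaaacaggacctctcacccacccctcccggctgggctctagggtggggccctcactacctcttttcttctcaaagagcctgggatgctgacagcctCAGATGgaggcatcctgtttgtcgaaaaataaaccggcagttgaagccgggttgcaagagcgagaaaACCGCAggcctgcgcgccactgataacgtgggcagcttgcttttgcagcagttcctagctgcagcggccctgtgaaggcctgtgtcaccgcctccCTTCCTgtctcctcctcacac
Runx1 intronic site at 205 kb, chr16:92620751-92621050, minus strand: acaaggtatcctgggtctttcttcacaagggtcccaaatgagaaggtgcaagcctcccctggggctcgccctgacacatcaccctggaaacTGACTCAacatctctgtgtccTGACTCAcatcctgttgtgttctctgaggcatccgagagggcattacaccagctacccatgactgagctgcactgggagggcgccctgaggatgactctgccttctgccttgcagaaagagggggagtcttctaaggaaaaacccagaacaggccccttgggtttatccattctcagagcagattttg
Runx2 intronic site at 201 kb, chr17:44614001-44614300, minus strand: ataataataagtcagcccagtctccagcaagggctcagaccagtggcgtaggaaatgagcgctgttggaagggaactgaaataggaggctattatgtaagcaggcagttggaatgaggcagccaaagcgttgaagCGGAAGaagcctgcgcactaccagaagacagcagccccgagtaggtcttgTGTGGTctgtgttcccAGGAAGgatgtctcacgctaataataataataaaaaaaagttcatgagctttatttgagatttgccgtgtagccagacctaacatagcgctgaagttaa
Runx3 intronic site at 8.40 kb, chr4:135128901-135129200, plus strand: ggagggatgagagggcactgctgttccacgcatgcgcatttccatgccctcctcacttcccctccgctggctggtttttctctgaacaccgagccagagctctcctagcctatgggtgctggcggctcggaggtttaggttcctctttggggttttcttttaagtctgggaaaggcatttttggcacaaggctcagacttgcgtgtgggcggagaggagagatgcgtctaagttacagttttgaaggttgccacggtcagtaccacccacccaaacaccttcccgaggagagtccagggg
Cbfa2t3 intronic site at 33.7 kb, chr8:122665301-122665600, minus strand: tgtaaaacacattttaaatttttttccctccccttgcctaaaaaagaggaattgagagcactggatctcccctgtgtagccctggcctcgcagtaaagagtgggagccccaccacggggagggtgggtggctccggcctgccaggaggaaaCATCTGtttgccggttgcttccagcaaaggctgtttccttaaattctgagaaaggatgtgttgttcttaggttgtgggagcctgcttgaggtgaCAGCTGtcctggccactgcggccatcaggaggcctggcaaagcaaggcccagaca
The 250 bases upstream of the distal Runx1 start were 44.8% G or C and held 1 TGTGGT, whereas those upstream of the proximal start were 67.6% G or C and held no match to any of the 8 motifs. The Cbfb window was 69.2% G or C. Of the 34049 upstream windows of this length on chromosomes 1 to 19 and X, 13.7% held TGTGGT and 29.2% AGGAAG.

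Each of the RUNX genes had starts that differed in accessibility. Insertions, meaning fragment ends, were counted within 500 bp of each of 18 starts, after starts less than 500 bp apart had been merged. Over all 34310 starts of the genome the median was 141 insertions and the third quartile 1224. Of the members' starts, 15 lay above that median and 5 above that quartile. The 5 were the Cbfb start, the first starts of Runx3, Runx1 and Cbfa2t3, and the second start of Cbfa2t3.

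At Runx1, the distal start (92826149; transcripts Runx1-201 and Runx1-204) was about 2 times as open as the proximal start 129 kb downstream (92697328; Runx1-202). The distal promoter makes the longer RUNX1 protein, and both promoters are known to be used in blood. The distal start had 1831 insertions, or 23.7 per 1000000 insertions of the kept cells (IPM; interval, 22.3 to 25.2), and was open in 24.5% of cells (exact binomial interval, 23.1 to 26.0). The proximal start had 872 insertions, or 11.3 IPM (10.3 to 12.3), and was open in 12.1% of cells (11.03 to 13.2). The log2 ratio of proximal over distal was -1.07 (-1.23 to -0.92). The remaining Runx1 starts, 130 and 131 kb downstream, had 54 and 77 insertions, below the median start. In barcodes not called as cells, the distal and proximal starts had 17.2 and 5.36 IPM.

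At Runx2 the order was the opposite. Its first, distal start (44814797), which makes the isoform typical of bone cells, had 457 insertions, or 5.93 IPM (5.23 to 6.69), and was open in 6.34% of cells. Starts 2, 3 and 4, which lie 78.1, 79.1 and 80.1 kb downstream, had 921, 847 and 600 insertions. The log2 ratio of start 2 over start 1 was 1.01 (0.80 to 1.23). The windows of starts 2 and 3 overlap at their edges, so a few insertions enter both. The open site that covers starts 2, 3 and 4 also holds the annotated start of Runx2os1, which cannot be told apart from them here. At Runx3 the distal start (135120652) had 3003 insertions, or 38.9 IPM (37.1 to 40.9), and was open in 34.6% of cells, which made it, with Cbfb, one of the most open starts of the 6 genes. The proximal Runx3 start, 31.8 kb downstream, had 874 insertions, and the log2 ratio of proximal over distal was -1.78 (-1.92 to -1.64).

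Cbfb has 1 merged start for its 4 transcripts. It had 3062 insertions, or 39.7 IPM (37.8 to 41.7), exceeded 93.1% of all starts and was open in 34.4% of cells. Its interval overlapped that of the distal Runx3 start. Cbfa2t3 had 1546 insertions at its first start (20.05 IPM, 18.7 to 21.4), 1233 at the second and 894 at the third, the last 2 being 519 bp apart, so that their windows overlap. Runx1t1 had 776, 629, 11 and 334 insertions at its 4 starts, none of which reached the third quartile of all starts. The number of cells open at a start is limited by depth, since most open cells had 1 fragment there: 748 of 890 cells at the distal Runx1 start and 966 of 1257 at the distal Runx3 start.

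**Figure D2:**
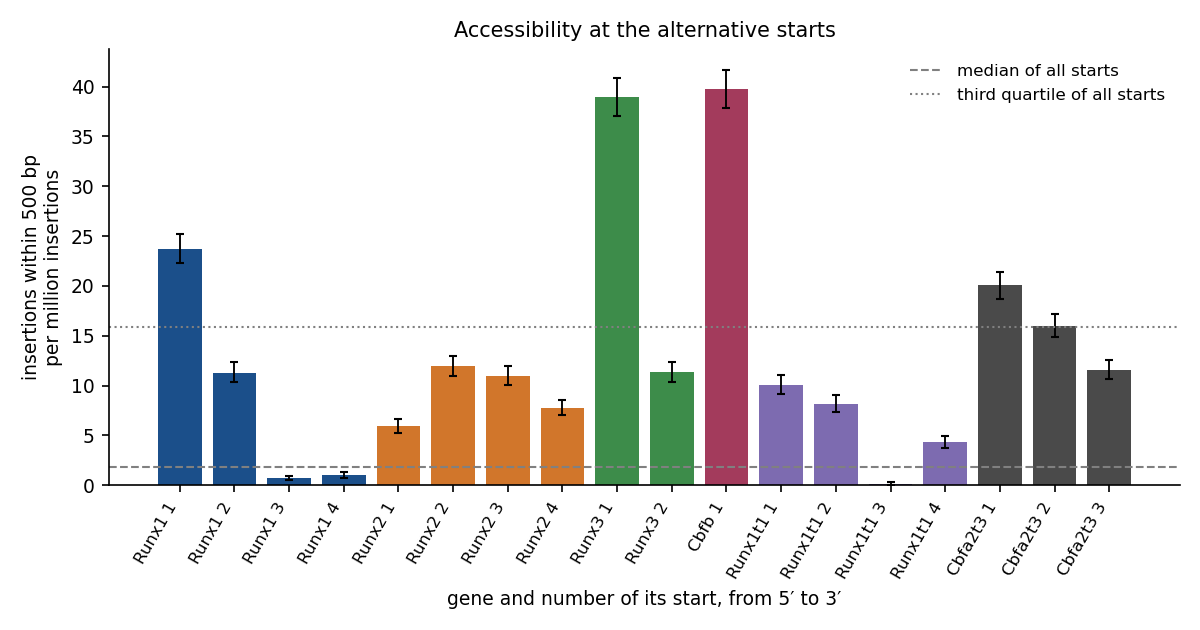
Insertions within 500 bp of each of the 18 alternative starts, per 1000000 insertions of the kept cells, numbered from 5′ to 3′ within a gene. Bars are values of the single library with 95% counting intervals, and the lines give the median and the third quartile of all 34310 starts; Cbfb (39.7) and the distal Runx3 start (38.9) are the highest, and the distal Runx1 start (23.7) exceeds the proximal one (11.3).

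Fragment lengths also separated the starts. Short fragments, of fewer bases than the DNA wound round 1 nucleosome, gave 67.9% of the insertions at the distal Runx3 start, 59.7% at the first Cbfa2t3 start, 55.4% at Cbfb and 45.6% at the distal Runx1 start, where over all insertions of the library the share was 32.7%. At the proximal Runx1 start it was 37.2%. The starts with fewest short fragments among those with over 300 insertions were Runx2 start 4 (20%), Runx1t1 start 4 (21.6%), Runx2 start 3 (22.9%) and Runx1t1 start 1 (24.6%), all below that overall share.

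The members held 60 open sites, of which 40 were intronic and the rest held a start, lay over an exon or lay just outside the gene. An open site was a merged run of 300 bp windows with at least 10 times the genome mean of insertions, and 59896 were found on chromosomes 1 to 19 and X, or 2.27 per 100 kb, with a median strength of 24.4 times the genome mean. Runx1 held 13 sites (5.73 per 100 kb), Runx2 21 (6.55), Runx3 8 (13.5), Cbfa2t3 11 (14.5), Runx1t1 6 (3.94) and Cbfb 1 (2.03). Cbfb was thus near the genome density and the other 5 genes above it.

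Runx1 was most open inside its first long intron. The site 24.3 kb downstream of the distal start, with its summit at chr16:92801651-92801950 and its sequence printed above, had 1519 insertions in 300 bp, or 173 times the genome mean, and was open in 796 cells. The summit at the distal start itself had 1242 insertions, or 142 times the genome mean, in 760 cells. The first intron of Runx1 is known to hold an enhancer active in blood stem cells; whether this site is that element was not tested. Short fragments gave 67.3% of the insertions at the intronic summit and 58.5% at the distal start, against a median of 50.4% over all open sites. Next came an intronic site 205 kb downstream (chr16:92620751-92621050), with 971 insertions, a site 3.95 kb downstream with 728, a site beside the proximal start, whose summit lay 1.47 kb upstream of that start, with 551, and a site 172 kb downstream with 446. The other 7 Runx1 sites had 89 to 251 insertions. Of all insertions at Runx1 summits, 27.7% lay at the sites that hold a start, compared with 12.8% at Runx2, 41.7% at Cbfa2t3, 65.5% at Runx1t1, 66.7% at Runx3 and 100% at Cbfb.

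The strongest site within Runx2 belongs to another gene by position. It lies 37.6 kb inside Runx2, holds the annotated start of Supt3, a subunit of the SAGA co-activator complex, and had 2027 insertions, 231 times the genome mean. A further intronic site, 105 kb inside Runx2, holds the start of Runx2os2 and had 421 insertions. Without these, the strongest intronic Runx2 site was the one at 201 kb (chr17:44614001-44614300) with 722 insertions, 82.3 times the genome mean, open in 480 cells. It exceeded the sites at the Runx2 starts, which had 599 and 242. The Runx2 level over the whole gene therefore includes the Supt3 start.

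Runx3 and Cbfb were led by their starts. The Runx3 site at the distal start had 2396 insertions, 273 times the genome mean and above 97.9% of all open sites, and 76.6% of them came from short fragments; it also holds the start of Gm16225. The strongest intronic Runx3 sites had 506 and 483 insertions, at 8.40 and 29.9 kb. The Cbfb start had 1998 insertions, 228 times the genome mean, and no other site was found in Cbfb. In Cbfa2t3, an intronic site at 33.7 kb (chr8:122665301-122665600) had 1126 insertions, 128 times the genome mean, and the summit at the first start 1132; the 2 differed by 6 insertions. The open stretch at that first start was 3.70 kb wide and had a further peak upstream: the bins centred 0.25 and 1.75 kb upstream had 31.6 and 33.4 insertions per bp, scaled to 1000000000 insertions. Runx1t1 had no site above 43.6 times the genome mean.

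**Figure D3:**
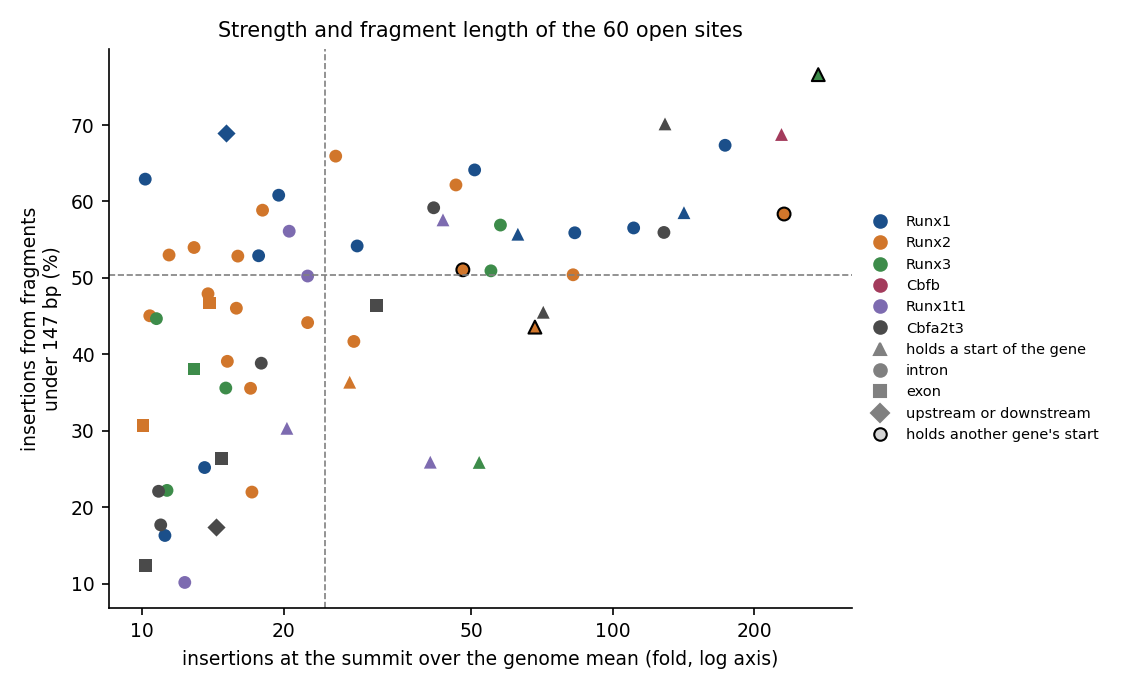
Strength of the 60 open sites (insertions in the 300 bp summit over the genome mean, log axis) against the share of their insertions from short fragments (%), by gene (colour) and position (shape). Dashed lines are the medians of all 59896 open sites (24.4-fold and 50.4%); the 8 sites above 100-fold all had over 50.4% short fragments, and 1 of those 8, in Runx2, is the Supt3 start.

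The main letters of the RUNX core, TGTGGT, stood in 19 of the 60 summits (31.7%) and in 25.8% of all open-site summits of the same length, and 12 of the 40 intronic summits held it. By gene, it was in 5 of 13 Runx1 summits, 7 of 21 in Runx2, 4 of 8 in Runx3, 0 of 1 in Cbfb, 1 of 6 in Runx1t1 and 2 of 11 in Cbfa2t3. The Runx1 site 3.95 kb downstream of the distal start held 3 matches and the summit at that start held 2, as did the summit at the distal Runx3 start. In Runx2, the exonic site at 208 kb held 3, and the exonic site at 207 kb and the summit at the distal start held 2 each. The strongest Runx1 intronic site held no TGTGGT but 1 TGCGGT, a variant found in 3 member sites (5%) and 7.24% of all sites. The site at 205 kb held 2 matches to TGANTCA, a motif in 8 member sites (13.3%) and 11.9% of all sites. AGATAA was in 7 member sites (11.7% against 10.7%), CAGCTG in 13 (21.7% against 19.4%), CAGATG in 17 (28.3% against 18.8%), AGGAAG in 24 (40.0% against 44.9%) and CGGAAG in 5 (8.33% against 13.7%). A match is a description of the letters and not evidence that a factor was bound.

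The more often open sites of Runx1 were open in the same cells about as often as their separate frequencies and the depth of each cell gave. Both the distal and the proximal start were open in 111 cells, with 116 expected, a ratio of 0.953 (0.784 to 1.15). Among the 78 pairs of Runx1 open sites, 23 had an expected count of at least 20 cells. Their ratios ran from 0.884, for the sites at 24.3 and 205 kb (127 cells, 144 expected), to 1.26, for the sites at 24.3 and 39.0 kb (48 cells, 38 expected), with a median of 1.01, and no interval lay off 1. Of the other 55 pairs, each with fewer cells expected, 2 had intervals above 1: the sites at 126 and 172 kb (18 cells, 7.62 expected, ratio 2.36, 1.40 to 3.73) and those at 39.0 and 181 kb (12 cells, 5.23 expected, 2.29, 1.18 to 4.01). Between genes, the distal starts of Runx1 and Runx3 were both open in 322 cells with 329 expected (ratio 0.977, 0.873 to 1.09), and those of Runx1 and Cbfb in 304 with 327 expected (0.929, 0.828 to 1.04). Over all 15 pairs of the members' strongest starts the ratio ran from 0.854, for Runx1t1 and Cbfa2t3, to 1.08, for Cbfb and Runx1t1, and every interval held 1. At about 10300 fragments per cell, a departure smaller than these intervals was not detectable.

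Accessibility of the 6 genes differed little with surface antigens. For each of 12 antibodies, cells with high counts were set against cells with low counts, as near to the highest and lowest 25% as tied counts allowed, and fragments over the gene with 2 kb upstream were scaled to 1000000 nuclear fragments of each group (FPM). Of the 72 ratios, all with at least 200 fragments, 1 passed a fold of 1.2: Cbfb was higher in the 71 cells with a CD163 tag, at 83.3 FPM, than in the 3558 without one, at 59.9 (log2 ratio 0.49, 0.09 to 0.84), from 62 and 2266 fragments. In that comparison 39.7% of all 19680 genes passed the fold, 20.3% in this direction. CD163 is a macrophage receptor, and its group was the smallest of the 12. In the cells with at least 50 tags this ratio was reversed (-0.20). Among the 4 antibodies of the platelet-biased (PLT) and multi-lineage (MUL) gates, no member passed the fold: the share of all genes that did was 8.98% for CD274, 7.23% for CD61, 5.01% for CD357 and 4.56% for CD27. For the other 7 antibodies, with no member past the fold either, it was 3.31% for P2X7R, 6.6% for MERTK, 4.01% for CD201, 4.39% for CD106, 14.3% for CD68, 17.4% for CD183 and 36.5% for CD206.

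For CD274, the interval of the Cbfa2t3 ratio lay off 0, although the ratio did not pass the fold. CD274 is PD-L1, one of the markers high in the PLT gate. In the 937 cells with 27 or more CD274 tags Cbfa2t3 had 205 FPM, and in the 877 cells with 12 or fewer it had 230 (log2 ratio -0.17, -0.25 to -0.08). Of all genes tested with CD274, 13.1% had a lower ratio. In 5 bins of rising CD274 counts Cbfa2t3 had 233, 219, 212, 199 and 204 FPM. Runx1 in the same bins had 335, 315, 304, 303 and 311, and its log2 ratio was -0.05 (-0.13 to 0.02). Runx2 had 277, 276, 287, 285 and 292, with a log2 ratio of 0.08 (-0.0001 to 0.15). The intervals of neighbouring bins overlapped for each of the 3 genes. Excess overlapping fragments were seen in 13.2% of CD274-high and 5.70% of CD274-low cells; without such cells the Cbfa2t3 ratio was -0.16. The groups also differed in total antibody tags, with a median of 46 per cell in CD274-high and 17 in CD274-low cells, and on the centred log ratio scale, which evens out the total tags of each cell, the Cbfa2t3 ratio was -0.14. In the 363 cells with at least 50 tags the Cbfa2t3 ratio turned to 0.23.

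The other ratios whose intervals lay off 0 were also small. Runx1t1 was at 92.1 FPM in CD61-high and 81.1 in CD61-low cells (0.18, 0.03 to 0.34); CD61 is integrin beta 3, a platelet integrin chain. In the 363 cells with at least 50 tags this ratio was -0.07. With CD27, a TNF receptor of lymphoid cells, Runx2 was at 299 in high and 283 in low cells (0.08, 0.01 to 0.15) and Cbfa2t3 at 203 and 216 (-0.09, -0.17 to -0.01). Runx1, the gene with most fragments, ranged from -0.06 with CD206 to 0.07 with CD163, and none of its 12 intervals lay off 0. The lowest value of any member was that of Runx3 with CD206, 116 FPM in 82 cells against 139 in 3547 (-0.26, -0.56 to 0.02).

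**Figure D4:**
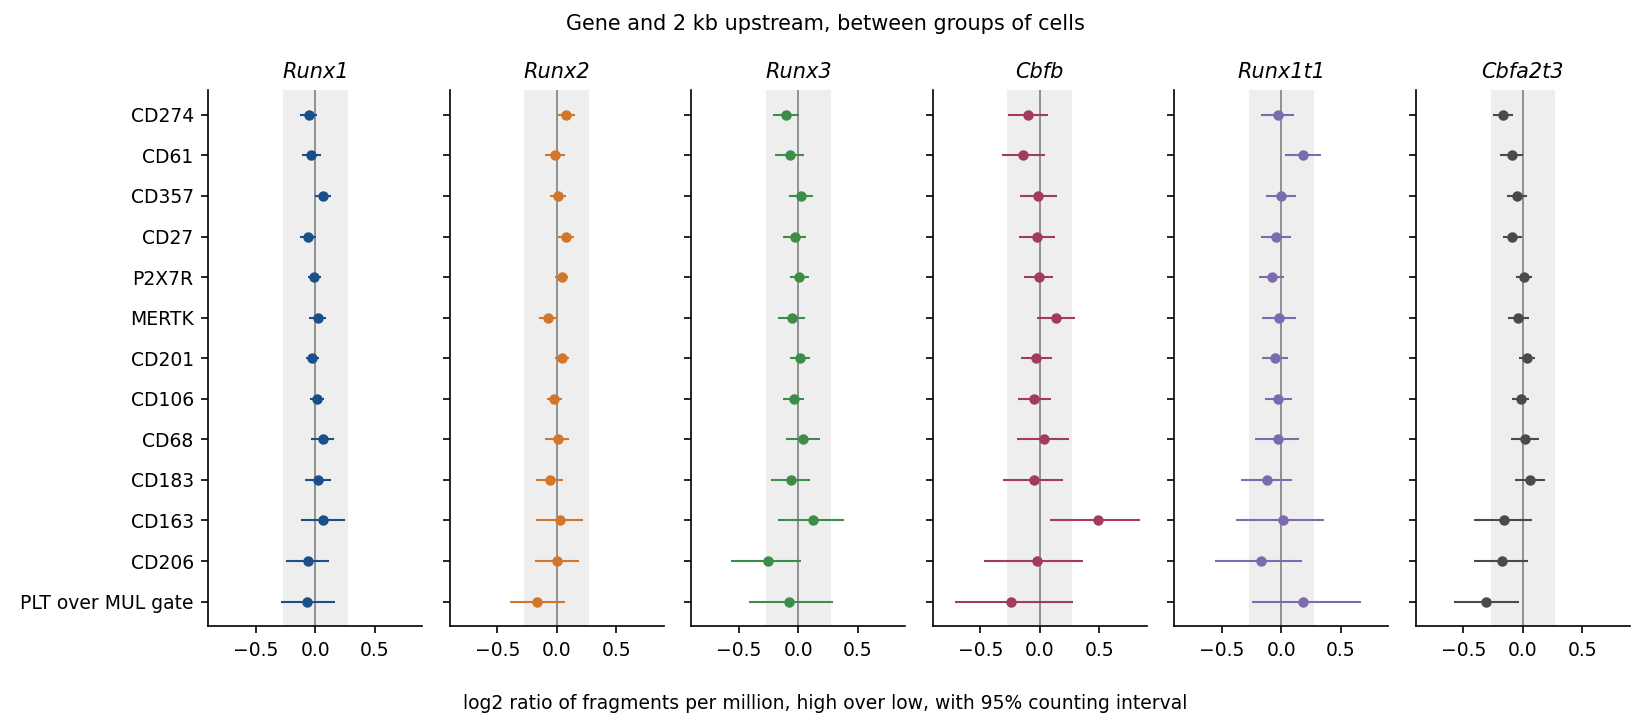
Log2 ratio of FPM over each gene with 2 kb upstream, antibody-high over antibody-low cells, for 12 antibodies, with PLT-gated over MUL-gated cells at the bottom. Points are single values with 95% counting intervals and the grey band marks 1.2-fold either way; Cbfb with CD163 (0.49) and Cbfa2t3 between the gates (-0.31) lie outside it.

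Single starts, which hold fewer fragments than whole genes, were compared in the same way. For CD274, 4 of the 12 starts with at least 200 fragments passed the fold, and 11% of all 11674 starts did. These were the first Cbfa2t3 start, lower in CD274-high cells at 19.2 FPM against 26.6 (log2 ratio -0.47, -0.74 to -0.19), the proximal Runx1 start, lower at 10.9 against 15.3 (-0.48, -0.85 to -0.12), the proximal Runx3 start, lower at 12.9 against 15.8 (-0.30, -0.65 to 0.05), and Runx2 start 3, higher at 17.3 against 12.6 (0.45, 0.11 to 0.80). The distal Runx1 start stood at 28.8 and 26.8 (0.10, -0.14 to 0.35) and Cbfb at 42.0 and 40.2 (0.07, -0.14 to 0.27). The fall at the first Cbfa2t3 start was not shared by its intronic site at 33.7 kb, which had 22.7 FPM in CD274-high and 20.1 in low cells (0.18, -0.11 to 0.46). Whether these sites differ from each other in their ratios was not tested.

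The window at the proximal Runx1 start held fewer fragments, relative to the distal one, in cells high for CD274 or CD357, markers that the PLT gate takes in opposite directions. In CD274-high cells the proximal start had 37.9% of the fragments of the distal start (113 and 298) and in CD274-low cells 56.97% (143 and 251). With CD357, the TNF receptor GITR, the proximal start had 10.6 FPM in high and 14.6 in low cells (-0.46, -0.82 to -0.12) and the distal start 27.4 and 26.6 (0.04, -0.19 to 0.28). At the summit of the open site that holds the proximal start, 1.47 kb upstream of it, this was not seen: it had 10.9 FPM in CD274-high and 11.6 in low cells (-0.09, -0.48 to 0.30), and 10.6 in CD357-high and 10.2 in low cells (0.05, -0.33 to 0.43). Median total tags were 36 in CD357-high and 25 in CD357-low cells. For CD357, 2 of 13 starts passed the fold against 6.69% of all starts. The proximal start had a smaller share of the distal one in antibody-high than in antibody-low cells for 8 of the 12 antibodies, and over the 12 the difference in log2 share ran from -0.59 to 0.57, with the highest value, for CD183, resting on 57 and 40 fragments. Without cells with an excess of overlapping fragments, an alternative chosen after seeing the data, the proximal start ratio was -0.43 (-0.84 to -0.02) for CD274 and -0.39 (-0.78 to -0.02) for CD357. With CD27 the distal start was lower, at 23.9 against 29.0 (-0.27, -0.51 to -0.04), and without those cells this was -0.18 (-0.44 to 0.07). The proximal start was lower with CD27 as well, at 11.8 against 13.9 (-0.24), but its interval held 0 (-0.59 to 0.09). It had 49.1% of the fragments of the distal start in CD27-high and 48.1% in CD27-low cells. For CD27, 3 of 13 starts passed the fold, against 6.76% of all starts. With CD61, none of 10 starts did, against 9.6% of all starts.

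Of the members' sites with at least 200 fragments over both groups, 2 of 13 passed the fold for CD274 (16.4% of all open sites did), 0 of 10 for CD61 (12.1%), 2 of 15 for CD357 (10.5%) and 4 of 17 for CD27 (10.4%). The Runx1 site at 24.3 kb did not pass it for any of these: it had 27.1 FPM in CD274-high and 25.6 in CD274-low cells (0.08, -0.18 to 0.33). The Runx1 site at 205 kb was higher in CD274-high cells, 20.9 against 15.5 (0.43, 0.12 to 0.74), and in CD357-high cells, 20.4 against 16.7 (0.29, 0.01 to 0.57). The site at the first Cbfa2t3 start was lower in both, at 16.2 against 21.1 for CD274 (-0.38, -0.69 to -0.08) and at 16.3 against 19.7 for CD357 (-0.27, -0.56 to 0.01). For CD27, the 4 sites were the summit at the distal Runx1 start (-0.31), the first 2 start sites of Cbfa2t3 (-0.31 and -0.30) and the site at the downstream Runx2 starts (0.42). That Runx2 site also holds the start of Runx2os1. Runx1t1 had no site with enough fragments for any of the 4 antibodies.

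Between cells gated in silico as PLT-HSCs and MUL-HSCs, Cbfa2t3 passed the fold, and which other members passed it differed between versions of the gates. The PLT gate took cells with counts over the median for CD61 and CD274 but not for CD357 or CD27, the MUL gate took the reverse, and 342 and 61 cells fell in them. Cbfa2t3 had 183 FPM in the first and 226 in the second gate (log2 ratio -0.31, -0.58 to -0.03), from 648 and 136 fragments. In this comparison 29.2% of all 7041 genes passed the fold, 14.2% in this direction, so 1 of 6 members past it is no more than the background. Runx1 had 309 and 323 (-0.07, -0.28 to 0.16), Runx2 274 and 308 (-0.17, -0.39 to 0.07), Runx3 128 and 135 (-0.08, -0.41 to 0.29), Cbfb 59.5 and 69.9 (-0.25, -0.71 to 0.28) and Runx1t1 89.7 and 78.2 (0.19, -0.25 to 0.67). All 5 intervals held 0. When the antibody counts were first put on the centred log ratio scale, the gates held 251 and 252 cells, and 2 members passed the fold, Cbfa2t3 at -0.27 (-0.45 to -0.10) and Runx1t1 at 0.33 (0.05 to 0.61), with Runx1 at -0.14 (-0.29 to -0.0012). In that version 15.2% of all 9125 genes passed it. When cells with excess overlapping fragments were left out, the medians of the gates were also taken anew over the remaining cells. The gates then held 247 and 88 cells, so both the cells and the cut-offs differed from the main version. In these gates 3 members passed the fold: Cbfa2t3 at -0.32 (-0.56 to -0.06), Runx1t1 at 0.33 (-0.07 to 0.78) and Runx3 at -0.28 (-0.57 to 0.03). The share of all 5228 genes past it was 20.8%. With P2X7R added to the gates, which left 237 and 27 cells, 2 of the 5 members with enough fragments passed the fold, as did 38.8% of all 3520 genes: Runx2 at -0.49 (-0.79 to -0.17) and Cbfa2t3 at -0.46 (-0.83 to -0.05). Runx1 then stood at 0.18 (-0.16 to 0.57). No start and no open site of a member had 200 fragments over the gates.

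**Figure D5:**
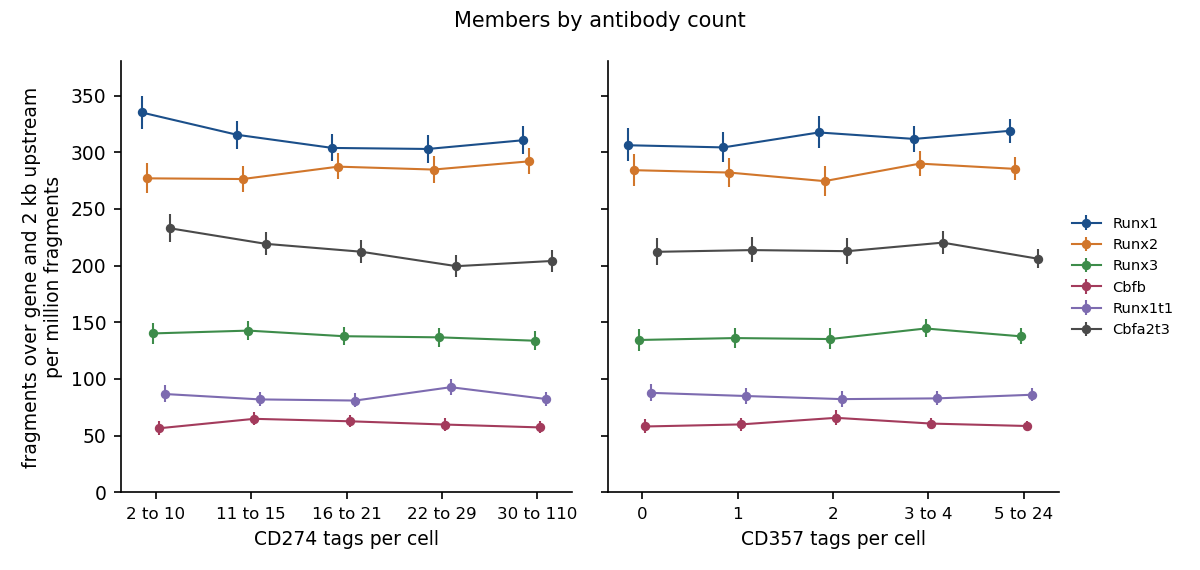
Fragments over each gene with 2 kb upstream per 1000000 nuclear fragments, in cells binned by CD274 tags (left) and CD357 tags (right), with 95% counting intervals. Across the CD274 bins Cbfa2t3 runs from 233 to 204 and Runx1 from 335 to 311, and across the CD357 bins the intervals of neighbouring bins overlap for every gene.

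The genes that work with the RUNX factors were compared with the median of all genes and with that of protein-coding genes. Of 25 partners and cofactors, 20 lay above the median gene and 15 above the median protein-coding gene (1.09 FPKM), from 0.483 FPKM for Yap1 to 8.28 for Prmt1, an arginine methyltransferase that modifies RUNX1. Of 13 stem cell and blood factors bound with RUNX1 or ETO2, 12 lay above the median gene and 11 above the protein-coding median. The median of these factors was 3.35. Lyl1, a bHLH factor of stem cells, was highest at 22.6, Gata2 had 8.60, Tal1 4.66 and Lmo2 4.23. Tcf12, at 0.454, lay below the median gene, and Erg, at 1.03, lay between the 2 medians. The most open Tcf12 start, however, had 2138 insertions, against 4758 at Lyl1, 2052 at Tal1, 1499 at Lmo2 and 1223 at Gata2. Of 16 RUNX targets in blood, 11 lay above both medians, with Cebpa highest at 8.25 and Il3 lowest at 0.241. Between CD274-high and CD274-low cells, where 8.98% of all genes passed the fold (4.8% lower and 4.17% higher in CD274-high cells), none of the 25 partners did, and of the 13 factors 2 did, both lower in CD274-high cells: Gata1 at 19.7 against 37.3 FPM (-0.92, -1.18 to -0.67) and Gfi1b at 24.3 against 29.3 (-0.26, -0.52 to -0.01). Of the 11 targets with enough fragments 2 passed it, both higher: Csf1r at 57.2 against 43.8 (0.39, 0.20 to 0.57) and Cd34 at 17.2 against 13.6 (0.34, 0.01 to 0.68). The medians of the 3 lists were -0.05, -0.06 and 0.08, and that of all genes tested was -0.0001. Of genes with at least 1000 fragments over both groups, 1.73% passed the fold with CD274.

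Of 11150 protein-coding genes with at least 1000 fragments, the one whose 12 antibody ratios were most like those of Runx1 was Scn8a (Pearson r = 0.940), followed by Trim28 (0.891) and Bmp1 (0.887). Most like Cbfb was Slc16a10 (0.983), most like Runx2 Ppcdc (0.886), most like Runx3 Cdk18 (0.969), most like Runx1t1 Abhd17a (0.903) and most like Cbfa2t3 Hp1bp3 (0.911). The 12 ratios come from the same cells and the groups of CD163 and CD206 are small, so these values are a description of these libraries. Each gene named was also picked for its high r among 11150 genes over only 12 ratios. How high r would be for unrelated genes was not tested.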

How the data were processed

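The deposited files hold raw counts, not normalized. Per the file headers, the authors processed the ATAC and RNA reads with cellranger-arc 2.0.2 on mm10, which called cells jointly and collapsed duplicates to 1 line per fragment, and antibody tags were counted with CITE-seq-Count (version not stated). Genes and starts came from GENCODE M21. Cells were kept if called and with at least 10 tags. Intervals for starts and sites were taken from fragments with an end in the window, since both ends of a fragment are not independent. Ratios had 0.5 added to each count and exact conditional binomial intervals, levels exact Poisson intervals. Doublets were not removed. Cells whose overlapping autosomal fragments exceeded a Poisson expectation (adjusted value below 0.01) were left out in an alternative. The ratio and its interval were tested on simulated data. The members and gene lists were chosen with earlier results of these data known. Other genes named are those of the lists and those most like a member. Python 3.11.15, numpy 2.4.6, scipy 1.17.1 and pandas 2.3.3 were used.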

Additional observations from a re-analysis of the deposited data

Results flagged for a closer look

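The comparisons used cells with antibody counts. In the 645 called cells without them, the 6 genes together had 1110 fragments per 1000000 nuclear fragments (1053 to 1169), against 1092 in the kept cells and 919 in barcodes not called as cells. These 645 cells were flagged because they hold signal outside the comparisons, above the limit that a count of 0 allows, 2.34 on this scale. The barcodes not called as cells also lay above it, so passing this limit does not set the 645 cells apart. The 95 cells with antibody counts but fewer than 10 tags, also outside the comparisons, had 1183 (1119 to 1250).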

How the results depend on the processing

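Small groups (CD163, 71 cells; CD206, 82; MUL gate, 61) gave wide intervals, and starts and sites with few fragments could not be compared between the gates. Of 720 ratios recomputed under 10 settings, 652 stayed within the main counting interval, and 610, inside or outside that interval, kept their sign. Of those outside it, 67 had not passed the fold and 1, Cbfb with CD163, had passed it and changed sign. The 363 cells with at least 50 tags accounted for 42 of those 67 and promoters alone for 21; the cause was not tested. Settings that changed only the fragment minimum (none, or at least 1000 fragments) leave each ratio as it was. The 72 ratios of each of these settings, counted among the 720, could therefore not move. No paired analysis was possible because each group is 1 library, and its number is only a name.

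The median member level, 1.30, was 1.11 over the gene body alone, and the median of insertions at starts was 6.17 per 1000000 insertions within 250 bp and 16.6 within 1000 bp. The 60 open sites became 102 at 5 times and 37 at 20 times the genome mean. The proximal over distal Runx1 ratio was -1.33 within 250 bp and -0.93 within 1000 bp. The share of all genes' ratios past the fold, pooled over the 12 antibodies, is given beside each count of members' ratios. The 1 antibody ratio past the fold (12.9% over all genes) became 0 with centred log ratios (5.75%), 15 in cells with at least 50 tags (32.8%), 2 without cells with excess overlapping fragments (14.1%), 2 without the deepest 5% of cells (13.9%), 8 for promoters alone (15.9%), 8 at a fold of 1.1 (33.3%) and 0 at a fold of 1.5 (2.08%). Cbfb with CD163 reversed to -0.20 in cells with at least 50 tags. Members past the fold between gates, 1 (29.2% of all genes), became 2 with centred log ratios (15.2%) and 2 with P2X7R added (38.8%). It became 3 without cells with excess overlapping fragments and with the gate medians taken anew (20.8%).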
